A study of Mus musculus with 91 samples.

Results

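The miRNAs described here are 7 mature mouse miRNAs of blood cells and vessels among the 1504 mature miRNAs of the main count table, and they were taken by name, not by their values. They are mmu-miR-144-3p, mmu-miR-144-5p and mmu-miR-451a of the red cell lineage, mmu-miR-142a-3p and mmu-miR-142a-5p of white blood cells, and mmu-miR-126a-3p and mmu-miR-126a-5p of the endothelium, written below without the species prefix. In every tissue and stage their combined share of the miRNA counts was small, with a median of 0.0769% over the 62 libraries of dissected embryos and 0.825% in the library where it was highest.

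Small RNA was profiled by CAS-seq, a small RNA sequencing method for picogram amounts of RNA in which Cas9 is used to cut unwanted products during library preparation. Embryos were dissected at embryonic day (E) 6.5 and E7.5 into extraembryonic ectoderm (Exe), which contributes to the placenta, and epiblast (Epi), which forms the embryo proper. The design asks what loss of the DNA methyltransferases does to miRNAs, and the members were followed across tissue, stage and genotype. All of these embryos came from B6D2F1 females mated to Oct4-EGFP males, were injected as zygotes with mRNA of the base editor hA3A-eBE3-Y130F, and grew in ICR recipients. Control embryos received the editor without guides. Dnmt1-KO embryos received a guide against Dnmt1, Dnmt3a/3b-DKO embryos received guides against Dnmt3a and Dnmt3b, and Dnmt-null embryos received all of them. Each of the 16 groups has 4 libraries, except E7.5 Epi control and E7.5 Epi Dnmt-null with 3 each. Because the edit was made in the zygote and small RNA libraries hold no Dnmt mRNA, the genotype of each library rests on its label. Semi-cloned (SC) embryos were made by injecting androgenetic haploid embryonic stem cells (AG-haESCs), which carry a sperm genome alone, into oocytes, and the E6.5 SC samples are epiblast per the study. At E6.5 they form groups of 3 libraries each, WT, DKO, Dnmt-null and the combination DKO;Dnmt-null. DKO cells carry deletions of the H19 and IG imprinting control regions. At E7.5 there are 3 control libraries made from DKO cells and 3 of Mir-6KO;Dnmt-null. For the latter, let-7b and 5 other miRNAs (miR-409, miR-540, miR-127, miR-369 and miR-541) were deleted in DKO cells before injection. Cultured AG-haESCs, strain C57BL/6, were sequenced as WT (3 libraries), the DKO line O48 (3) and Mir-6KO (2), which was derived from O48. The edited lines were grown from single cells, so each is 1 clone. Whether the libraries of a group came from separate embryos or cultures is not stated in the sources used here, and the p-values measure the spread between these libraries.

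Blood first forms in the mouse in the yolk sac, where primitive red cells and endothelium arise side by side in the extraembryonic mesoderm around gastrulation. miR-144 and miR-451a are cut from a common precursor transcript that GATA1 switches on in red cell precursors, and miR-451a is among the most abundant miRNAs of mature red cells. Its hairpin is too short for Dicer and is cut by Argonaute 2 instead. miR-142 is made throughout the blood lineages, white cells above all, and miR-126, made with its host gene Egfl7, is the best known miRNA of endothelial cells. An embryo of this age lies in the maternal decidua, which has red cells, white cells and vessels of its own.

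The mature sequences of RefSeq (GRCm38.p6) are shown because the reads were assigned through them, with the seed, bases 2 to 8, in capitals. 6 of the 7 members had an entry, and miR-126a-5p is named only.
miR-144-3p: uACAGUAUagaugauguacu
miR-144-5p: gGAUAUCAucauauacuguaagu
miR-451a: aAACCGUUaccauuacugaguu
miR-142a-3p: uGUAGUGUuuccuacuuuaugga
miR-142a-5p: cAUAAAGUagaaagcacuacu
miR-126a-3p: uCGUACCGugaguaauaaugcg
No pair of these 6 has the same seed, and the longest run of letters that any pair shares is 5 bases. miR-144-5p (chr11:78073010-78073032), miR-144-3p (chr11:78073047-78073066) and miR-451a (chr11:78073186-78073207) lie on the plus strand of chromosome 11, with 119 bases between miR-144-3p and miR-451a. miR-142a-5p (chr11:87756867-87756887) and miR-142a-3p (chr11:87756903-87756925) lie on the same strand, within an intron of the long noncoding RNA Mir142hg in GENCODE vM21. miR-126a-3p (chr2:26591402-26591423, plus strand) lies inside Egfl7, where the hairpin falls within 9 of the 19 annotated transcripts and overlaps an exon in 1 of them.

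Some members have a double in the count table. miR-142b had the same count as miR-142a-3p, miR-126b-5p the same as miR-126a-3p, and miR-126b-3p the same as miR-126a-5p, in all 88 libraries of the main table. The mature sequence of miR-142b shares 20 bases with the opposite strand of miR-142a-3p, and that of miR-126b-5p shares 19 with the opposite strand of miR-126a-3p. The counts as given do not tell these pairs apart by strand, and the doubles add no evidence.

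Total counts ran from 45242 to 2394918 over the 62 dissected libraries (at E6.5 up to 600821, at E7.5 at least 266379). Levels are CPM, a miRNA's count scaled to 1000000 miRNA counts of its library. A count of 0 therefore allows up to 66.3 CPM in the shallowest library and up to 1.25 CPM in the deepest, which covers counting error only. The tissue labels held in the control embryos, where all 4 miRNAs of the Epi list (miR-302 cluster and its neighbour) were lower in Exe at both stages and 5 of 5 miRNAs of the Exe list (Sfmbt2 cluster) were higher at E6.5 and 4 of 5 at E7.5. 3 libraries stood apart. In E6.5 Epi Dnmt-null replicate 1, the shallowest, all members were at 0. E6.5 Exe Dnmt1-KO replicate 4 and E7.5 Exe Dnmt3a/3b-DKO replicate 2 held far more miR-144-3p and miR-451a than the other 60, and results that rest on them are given with and without them. In these bulk samples, fewer cells of a type and less RNA per cell cannot be told apart.

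**Figure D1:**
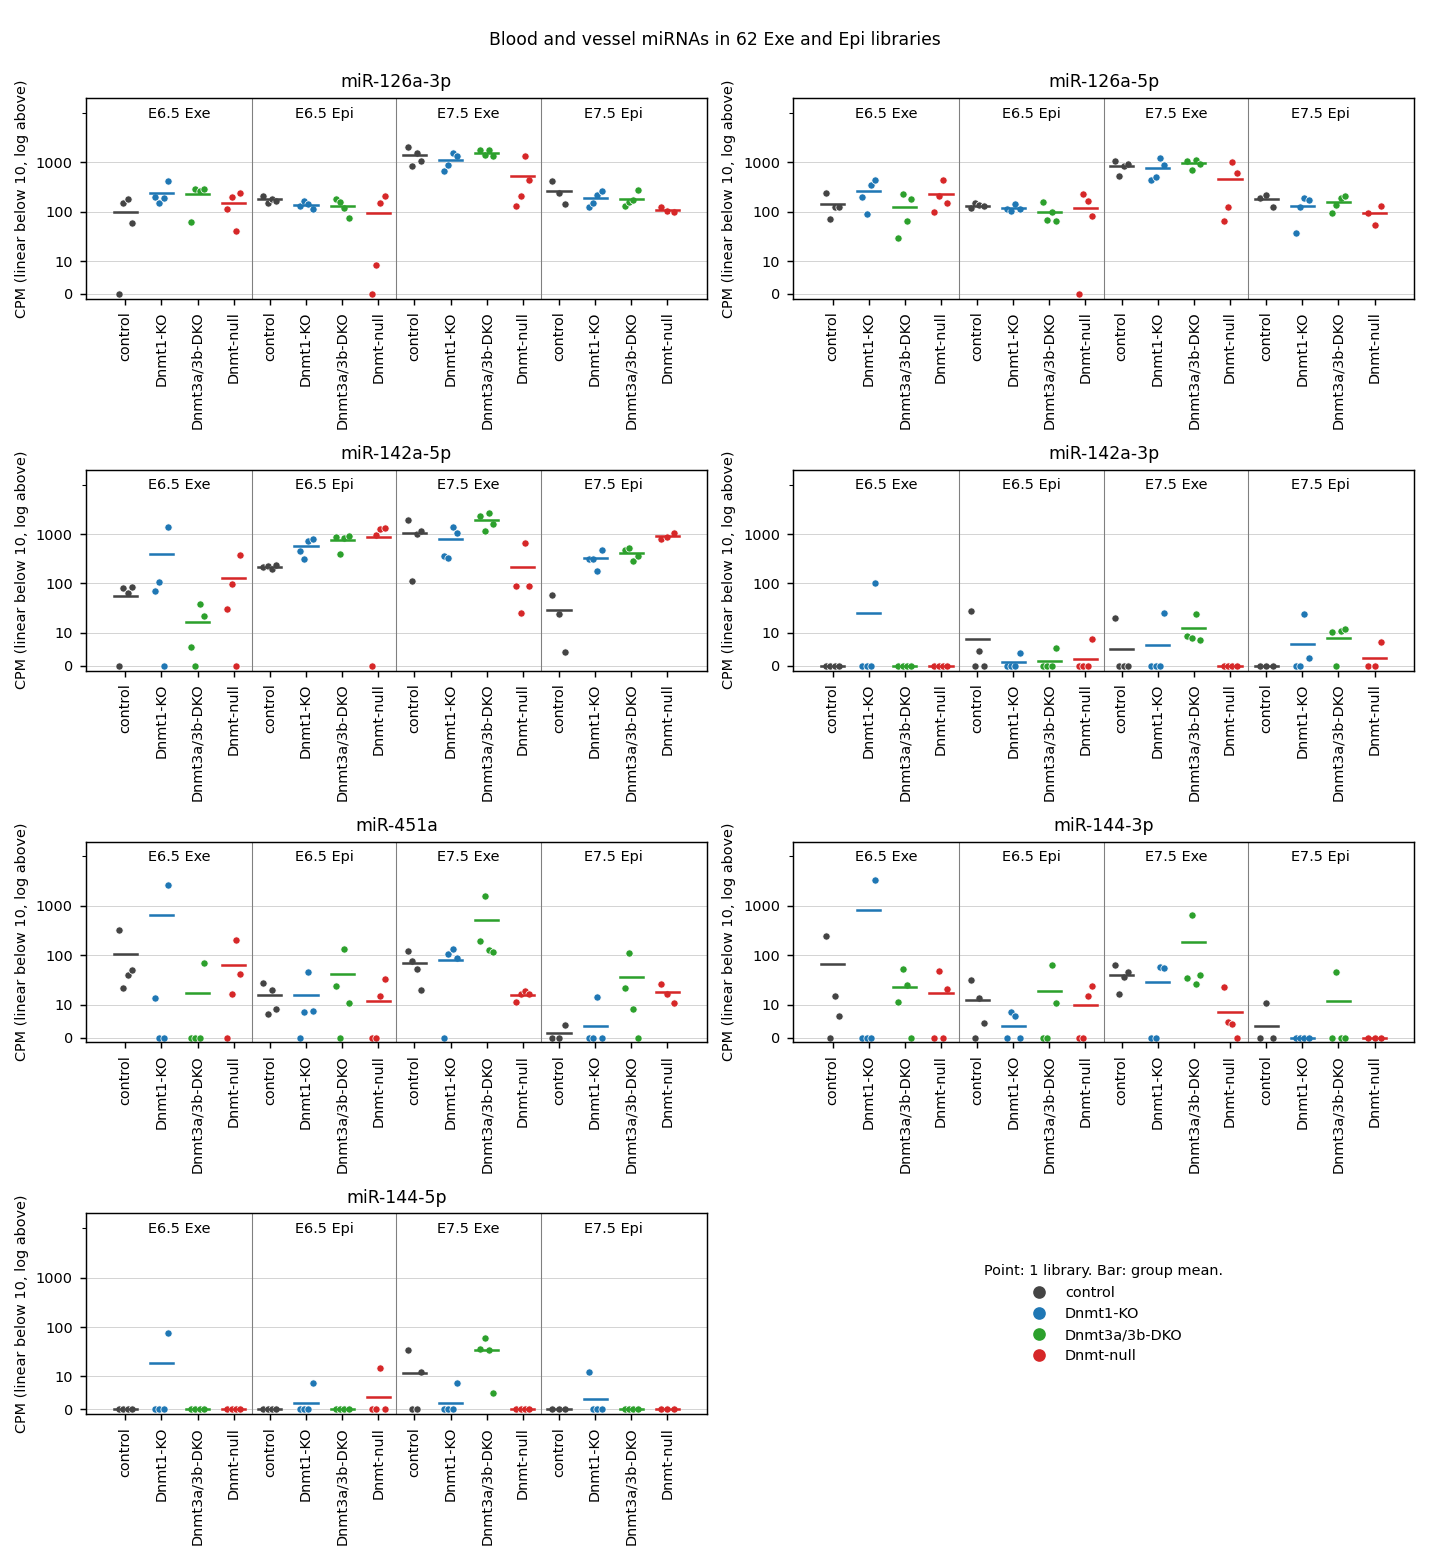
CPM of each member (vertical axis, linear below 10 and logarithmic above) in the 62 Exe and Epi libraries, in panels by miRNA and by tissue and stage, with 1 point per library and a bar at the group mean. The miR-126a points of E7.5 Exe mostly lie above those of the other tissues and stages, less so in Dnmt-null, and miR-142a-5p rises from control to mutants in E7.5 Epi.

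The endothelial miR-126a was present in both tissues at E6.5 and rose in Exe alone by E7.5. In the control Exe libraries miR-126a-3p was at 0, 57.5, 151 and 178 CPM at E6.5 and at 832, 1081, 1536 and 2039.7 CPM at E7.5. The groups did not overlap, and the mean went from 96.7 CPM ± 82.6 (SD, n = 4) to 1372 CPM ± 532 (SD, n = 4), which is 3.74 ± 0.58 (SE) on the log2 scale of edgeR (adjusted p = 0.0002). miR-126a-5p, the other arm of the hairpin, was at 71.9, 121, 124 and 243 CPM at E6.5 and at 518, 847, 903 and 1036 CPM at E7.5 (log2 fold change 2.62 ± 0.40, adjusted p = 0.0002). In control Epi, miR-126a-3p was at 149, 161, 183 and 209.6 CPM at E6.5 and at 141, 236 and 411 CPM at E7.5. These groups overlapped, with log2 fold changes of 0.61 ± 0.54 for the 3p arm and 0.44 ± 0.40 for the 5p arm (adjusted p = 0.472 for both). The stage change was larger in Exe than in Epi by 3.13 ± 0.79 on the log2 scale for miR-126a-3p (adjusted p = 0.0134) and by 2.17 ± 0.56 for miR-126a-5p (adjusted p = 0.0165). These were 2 of the 3 members called for this difference among 5 tested, where 13.4% of all 558 miRNAs were called, 11.3% with a larger change in Exe, and the median over all 558 was 0.61. The Exe list in control Epi summed to 4457 to 20568.5 CPM at E6.5 and to 1454 to 1758 CPM at E7.5. Its part in the differences between the tissues was not tested.

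Between the tissues, miR-126a-3p in control embryos differed at E7.5, where Exe was higher by 2.29 ± 0.58 on the log2 scale (adjusted p = 0.00443), and miR-126a-5p by 2.14 ± 0.42 (adjusted p = 0.00054). The Exe and Epi libraries of E7.5 did not overlap in either arm. At E6.5 the estimates were -0.84 ± 0.55 for the 3p arm and -0.04 ± 0.39 for the 5p arm, and the libraries overlapped. The higher 3p level at E7.5 depended on 1 library for its call, since without E7.5 Epi control replicate 3 it was 1.70 (adjusted p = 0.067). The difference between the stage changes of miR-126a-3p likewise passed only with E7.5 Epi control replicates 2 and 3 and E7.5 Exe control replicate 1 all in the fit (adjusted p = 0.059, 0.069 and 0.062 without each in turn).

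The leukocyte miRNA miR-142a-5p changed in opposite directions in the 2 tissues, up in Exe and down in Epi. In control Exe it was at 0, 64.3, 79.1 and 83.1 CPM at E6.5 and at 113, 1017, 1167 and 1943 CPM at E7.5, with no overlap (log2 fold change 4.13 ± 0.82, adjusted p = 0.00239). In control Epi it was at 199, 213, 221 and 231 CPM at E6.5, a close group, and at 4.31, 23.9 and 58.0 CPM at E7.5, from 7 to 135 counts per library (log2 fold change -2.86 ± 0.83, adjusted p = 0.0154). The fall in Epi lost its call without E7.5 Epi control replicate 2 (-2.60, adjusted p = 0.067) or replicate 3 (-2.24, adjusted p = 0.073). The difference between the stage changes was 6.99 ± 1.18 on the log2 scale (adjusted p = 0.00189) and kept its call without any 1 of the 15 libraries. The Exe list fell in control Epi over the same stages, as given above, and its part in these changes was not tested.

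As a result the order of the tissues turned over between the stages. At E6.5 every control Epi library was above every control Exe library in miR-142a-5p, but the difference of -1.89 ± 0.78 did not pass the adjustment (adjusted p = 0.0739). At E7.5 every Exe library was above every Epi library, with means of 1060.2 CPM ± 750.4 (SD, n = 4) and 28.8 CPM ± 27.2 (SD, n = 3) and a log2 difference of 5.10 ± 0.92 (adjusted p = 0.000276). The other arm, miR-142a-3p, was near the limit of detection. It was at 0 in all E6.5 Exe control and E7.5 Epi control libraries, and its highest level in a control library was 27.9 CPM, in 8 counts. Over the 62 libraries the 5p arm made up 99.2% of the 26943 counts of the hairpin, and 88.3% in the library with its lowest share among those with at least 10 counts.

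The erythroid pair was scarce and uneven. miR-451a was at 21.6, 39.6, 51.1 and 319 CPM in E6.5 Exe control and at 20.0, 51.7, 77.0 and 123 CPM in E7.5 Exe control, groups that overlapped (log2 fold change -0.58 ± 1.02, adjusted p = 0.826). The library at 319 CPM held 21 counts and was E6.5 Exe control replicate 1, the same library in which miR-144-3p reached 243 CPM. In control Epi, miR-451a was at 7.11, 8.72, 20.1 and 27.9 CPM at E6.5 and at 0, 0 and 3.70 CPM at E7.5, which is at most 9 and 6 counts per library (log2 fold change -3.57 ± 1.31, adjusted p = 0.0505). At E7.5 miR-451a was higher in Exe than in Epi by 5.61 ± 1.39 on the log2 scale (adjusted p = 0.00374), and at E6.5 the difference was 2.62 ± 1.10 with overlap (adjusted p = 0.0795). The difference of its stage change between the tissues was 2.99 ± 1.58 (adjusted p = 0.235), so no change of the tissue difference with stage was shown.

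miR-144-3p, from the same transcript, was at 16.3, 35.8, 46.1 and 63.4 CPM in E7.5 Exe control and at 0, 0 and 10.6 CPM in E7.5 Epi control. These groups did not overlap, but the log2 difference of 3.40 ± 1.70 did not pass (adjusted p = 0.139). Its passenger arm miR-144-5p had a count in 11 of the 62 libraries, 7 of which were E7.5 Exe, and among the control libraries in 2 of E7.5 Exe only, at 12.0 and 35.0 CPM. Over the 62 libraries the log2 CPM of miR-451a and miR-144-3p had a Pearson r of 0.689, and of 0.551 over the 60 without the high libraries. The libraries share depth and stage, so the value is a description.

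In counts of members, 0 of 5 tested were called by edgeR between the control tissues at E6.5 (2 at an unadjusted p under 0.05 and 2 by DESeq2), against 29.4% of all miRNAs tested, and 4 of 5 at E7.5, all higher in Exe, against 33.2% (22.2% higher). From E6.5 to E7.5, 3 of 5 rose in Exe, against 14.3% called (10% higher), and 1 of 5 fell in Epi, against 26.9% called (17% lower). The median log2 difference between the tissues at E7.5 was 3.40 over the 5 members tested and 0.00 over all 558. miR-144-5p and miR-142a-3p did not pass the filter on low counts in this fit.

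**Figure D2:**
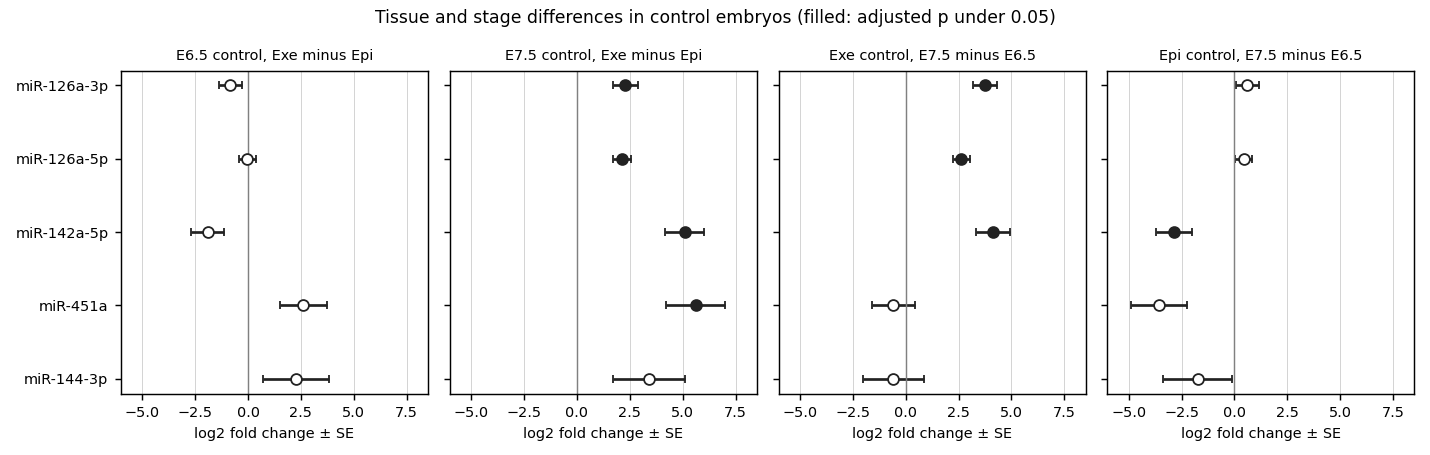
Log2 fold change with its SE for the 5 tested members in control embryos, for the tissue difference at each stage and the stage change in each tissue, with filled points for adjusted p under 0.05. miR-126a and miR-142a-5p lie to the right of 0 for the stage change in Exe, and miR-142a-5p to the left of 0 in Epi.

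Other markers of blood, vessel and maternal tissue gave a mixed picture in the same control libraries. Of the other erythroid miRNAs, the 4 rows of miR-486 were called higher in Exe at both stages, and they carry nearly the same reads. miR-486a-5p, processed from within an intron of the ankyrin gene Ank1, averaged 187 CPM in Exe and 23.7 CPM in Epi at E6.5 (log2 difference 2.92 ± 0.80, adjusted p = 0.00985) and 364 against 66.7 CPM at E7.5 (2.36 ± 0.82, adjusted p = 0.0314), with no call between the stages. Of 6 other leukocyte miRNAs counted, 3 were tested, and none was called higher in Exe at either stage. miR-146a-5p (-3.07, adjusted p = 0.00518) and miR-150-5p (-2.63, adjusted p = 0.0347) were lower in Exe at E6.5, miR-342-3p was lower in Exe at E7.5 (-0.72, adjusted p = 0.00909), and miR-342-3p rose with stage in Exe (1.13, adjusted p = 0.000521) and in Epi (1.35, adjusted p = 5.74e-05). miR-223-3p, the defining granulocyte miRNA, was at 0 in 60 of the 62 libraries.

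Apart from the miR-126b doubles, the vessel list holds miR-221 and miR-222, which many cell types besides endothelium make. miR-222-3p was lower in Exe at E6.5 (-1.77, adjusted p = 0.0226) and at E7.5 (-2.98, adjusted p = 0.000444). Liver miR-122-5p, a miRNA of maternal plasma, was tested in all 4 comparisons of control tissues and stages without a call, had a count in 36 of the 62 libraries and reached 85 counts. It was also counted in all 8 labelled libraries of cultured AG-haESCs. In the stroma and smooth muscle list of 6, of which 5 were tested, miR-199a-3p and miR-199a-5p were higher in Exe at E6.5 (3.16 and 3.06). From E6.5 to E7.5, miR-143-3p rose in Exe (2.46, adjusted p = 0.00466) and in Epi (2.36), beside the rise of miR-126a in Exe. Of 4 heart and skeletal muscle miRNAs 2 were tested, and 1 was called higher at E7.5 in each tissue. It was miR-1a-3p in Exe, from 0 in every E6.5 library to a mean of 23.7 CPM (adjusted p = 0.0459), and miR-133a-3p in Epi, from 38.9 to 297 CPM (2.97 ± 0.83, adjusted p = 0.0126). The part of maternal, muscle or stromal cells in the members' levels was not tested.

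In the Dnmt mutants, miR-142a-5p was called against control in E7.5 Epi only, where it was higher in each mutant. Whether this change differed from that at E6.5 was not tested. Against the control range of 4.31 to 58.0 CPM, it was at 182, 311, 316 and 477 CPM in Dnmt1-KO, at 289, 359, 474 and 526 CPM in Dnmt3a/3b-DKO, and at 781, 869 and 1035 CPM in Dnmt-null. No mutant library overlapped the controls. The log2 fold change was 3.27 ± 0.57 in Dnmt1-KO (adjusted p = 0.000598), 3.73 ± 0.58 in Dnmt3a/3b-DKO (adjusted p = 0.000279) and 4.71 ± 0.62 in Dnmt-null (adjusted p = 2.89e-05). It was the only member of 5 tested that rose, against 16.3%, 7.67% and 33.7% of all miRNAs called in the 3 comparisons and 8.28%, 5.98% and 16.4% called higher. These comparisons share their 3 control libraries, whose levels were themselves below those of E6.5. The Dnmt-null libraries lay above the other mutants without overlap, but the differences of 1.44 ± 0.49 from Dnmt1-KO (adjusted p = 0.073, 10.9% called) and of 0.98 ± 0.49 from Dnmt3a/3b-DKO (adjusted p = 0.219, 16.4% called) did not pass in edgeR. DESeq2 called the first of them (adjusted p = 0.0146). At an unadjusted p under 0.05 there were 2 of 5 members in the comparison with Dnmt1-KO and 1 in that with Dnmt3a/3b-DKO.

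In E7.5 Epi Dnmt-null, miR-126a-3p fell. It was at 100.0, 102 and 125 CPM against 141, 236 and 411 CPM in the controls (log2 fold change -1.50 ± 0.41, adjusted p = 0.01, where 17.3% of all miRNAs were called lower), and this was lost without E7.5 Epi control replicate 1 (-1.02, adjusted p = 0.083). miR-126a-5p was at 53.3, 95.3 and 132 CPM against 126, 186 and 220.3 CPM (-1.14 ± 0.52, adjusted p = 0.107). miR-451a was at 10.7, 16.4 and 25.7 CPM in Dnmt-null, from 3 to 8 counts per library, all above the controls at 0, 0 and 3.70 CPM, and the difference of 3.53 ± 2.13 did not pass (adjusted p = 0.228). In Dnmt3a/3b-DKO it was at 0, 8.75, 21.5 and 112 CPM and overlapped the controls (4.70 ± 2.15, adjusted p = 0.224). In Dnmt-null against control, 2 of 5 tested stromal miRNAs and both tested miRNAs of the heart and muscle list were lower, 4 of 5 miRNAs of the Exe list were higher and 3 of 4 of the Epi list lower. Their part in the miR-142a-5p result was not tested.

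In E7.5 Exe the Dnmt-null libraries tended the other way, with a wide spread. miR-142a-5p was at 25.2, 88.0, 90.1 and 655 CPM in Dnmt-null and at 113, 1017, 1167 and 1943 CPM in control (log2 fold change -2.25 ± 0.79, adjusted p = 0.0862). miR-126a-3p was at 128, 204, 445 and 1339 CPM against 832, 1081, 1536 and 2039.7 CPM (-1.32 ± 0.51, adjusted p = 0.12). miR-451a was between 11.3 and 18.9 CPM in the 4 Dnmt-null libraries, from 3 to 14 counts, below every control library (-2.04 ± 1.02, adjusted p = 0.261). The highest value of miR-142a-5p and of both miR-126a arms came from Dnmt-null replicate 3, and without it miR-142a-5p was -3.89 (adjusted p = 0.00197) and miR-126a-3p -2.31 (adjusted p = 0.00117). That library also held the highest sum of the heart and muscle list in its group, 760 CPM against a group median of 23.2 CPM. The part of other cell types in its levels was not tested. With all libraries, edgeR called 0 of 6 tested members against control in any of the 3 mutants, where 5.03% (Dnmt1-KO), 3.02% (Dnmt3a/3b-DKO) and 9.88% (Dnmt-null) of all miRNAs were called. At an unadjusted p under 0.05 there were 0, 1 and 3 members in the same order, and DESeq2 called 0, 0 and 2.

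The change of miR-142a-5p in Dnmt-null at E7.5 differed between Epi, where it rose, and Exe, where the estimate was below 0 but not called. The difference was 7.02 ± 1.47 on the log2 scale (adjusted p = 0.00821, where 0.608% of all miRNAs were called). Without E7.5 Epi control replicate 3 it was 6.52 (adjusted p = 0.054). In Dnmt1-KO the difference was 3.47 ± 1.33 (adjusted p = 0.219) and in Dnmt3a/3b-DKO 2.84 ± 1.32 (adjusted p = 0.451), with 0% and 0.76% of all miRNAs called.

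Among the Exe mutants of E7.5, Dnmt-null and Dnmt3a/3b-DKO stood farthest apart. In Dnmt3a/3b-DKO, miR-142a-5p was at 1133, 1608, 2336 and 2618 CPM, all above the Dnmt-null libraries (Dnmt-null lower by a log2 of -3.08 ± 0.82, adjusted p = 0.0424, with 3.85% of all miRNAs called and 2.51% lower). miR-451a was at 117, 128, 196 and 1584 CPM, again above every Dnmt-null library (-4.89 ± 1.11, adjusted p = 0.0175). Without the library at 1584 CPM the miR-451a difference was -3.09 (adjusted p = 0.183), and the miR-142a-5p difference was -3.27 (adjusted p = 0.0507). All 4 miR-486 rows moved with these members and were lower in Dnmt-null, with miR-486a-5p at -3.29 ± 0.87 (adjusted p = 0.0424), and without the library at 1584 CPM it was -1.11 ± 0.58 (adjusted p = 0.605) and none of the 4 was called. Dnmt1-KO Exe was at 324, 365, 1063 and 1368 CPM in miR-142a-5p and at 0, 86.4, 104 and 132 CPM in miR-451a, both overlapping the controls. Against Dnmt1-KO no member was called in Dnmt-null by edgeR or DESeq2 (2 at an unadjusted p under 0.05), where 1.17% of all miRNAs were.

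**Figure D3:**
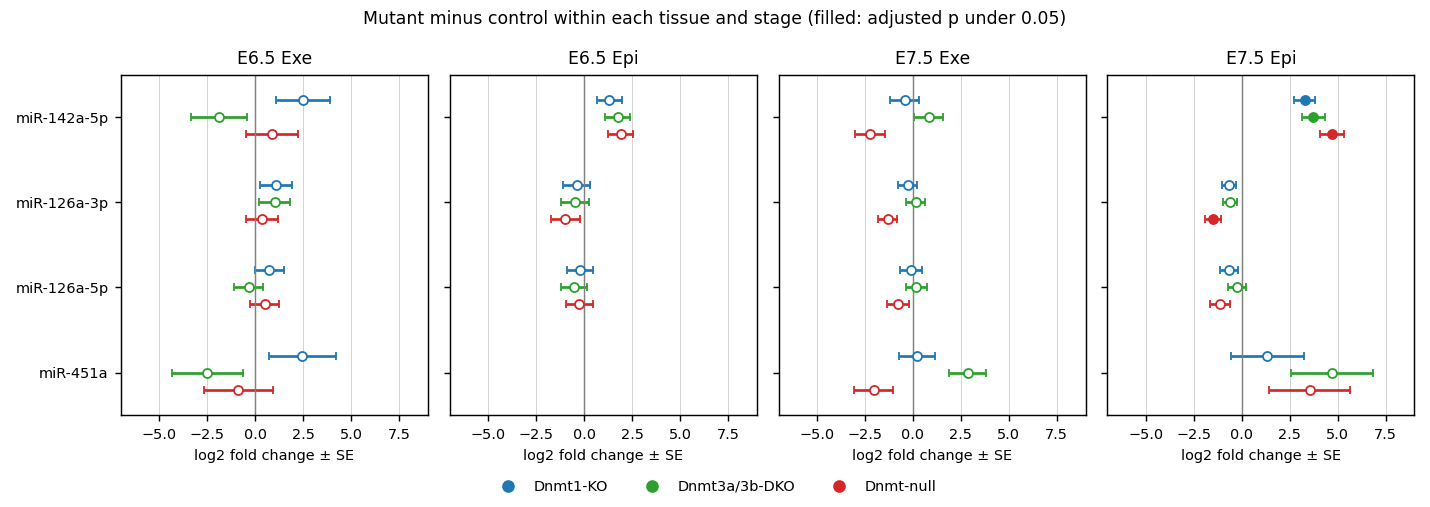
Log2 fold change from control with its SE for 4 members in each Dnmt genotype, by tissue and stage, with filled points for adjusted p under 0.05 and no point where a miRNA did not pass the filter on low counts. In E7.5 Epi all 3 mutants are filled and to the right for miR-142a-5p, and in E7.5 Exe Dnmt-null lies left of the other mutants for each of the 4.

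At E6.5 edgeR called no member in any genotype of either tissue. In Exe 4 members were tested, and 0 were past an unadjusted p of 0.05 or called by DESeq2, where 0% to 0.532% of all miRNAs were called. In Epi 3 were tested, and 1 was past an unadjusted p of 0.05 in Dnmt3a/3b-DKO and 1 in Dnmt-null, the latter called by DESeq2. Of all miRNAs 0.733%, 3.42% and 13% were called against control in Epi of Dnmt1-KO, of Dnmt3a/3b-DKO and of Dnmt-null, and 1.96% and 1.22% in Dnmt-null against the other mutants. miR-142a-5p in E6.5 Epi was at 307, 456, 719.6 and 785 CPM in Dnmt1-KO and at 394, 826, 886 and 893 CPM in Dnmt3a/3b-DKO, above the controls at 199 to 231 CPM, and at 0, 939.6, 1260.2 and 1307 CPM in Dnmt-null. The log2 fold changes were 1.32 ± 0.65 (adjusted p = 0.439), 1.76 ± 0.66 (adjusted p = 0.195) and 1.91 ± 0.66 (adjusted p = 0.0644). The value of 0 was that of the shallowest library of the 62, and without it all 3 changes were called, at 1.31 (adjusted p = 0.0421), 1.82 (adjusted p = 0.00142) and 2.34 (adjusted p = 0.000243). The Epi list summed to 47832 to 99270 CPM in E6.5 Epi Dnmt-null, below the 129048 to 198436 CPM of control. Its part in the Dnmt-null change was not tested. miR-126a in E6.5 Epi overlapped between all genotypes.

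2 libraries held most of the erythroid counts. In E6.5 Exe Dnmt1-KO replicate 4, miR-144-3p was at 3262 CPM (385 counts), miR-451a at 2584 CPM (305 counts) and miR-144-5p at 76.3 CPM (9 counts), while in the other 3 libraries of its group miR-144-3p was at 0 and miR-451a reached 13.8 CPM. In E7.5 Exe Dnmt3a/3b-DKO replicate 2, miR-451a was at 1584 CPM (2472 counts), miR-144-3p at 656 CPM (1024 counts) and miR-144-5p at 60.9 CPM (95 counts). Over the other 60 libraries the highest values were 319 CPM of miR-451a and 243 CPM of miR-144-3p.

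The profiles of these 2 libraries differed outside the erythroid pair. The E6.5 library also had the highest miR-142a-5p (1373 CPM) and miR-142a-3p (102 CPM) of E6.5 Exe, miR-223-3p at 102 CPM (12 counts, one of only 2 libraries with any), miR-150-5p at 466 CPM, miR-486a-5p at 1999.5 CPM and liver miR-122-5p at 84.7 CPM (10 counts). Over the other 60 libraries miR-122-5p reached 130 CPM and miR-150-5p 420 CPM. Both were counted in all 8 labelled AG-haESC libraries, at up to 257 and 513 CPM, while miR-223-3p was at 0 there. Its stroma and smooth muscle list of 6 was high too, summing to 4431 CPM (523 counts) against 359 to 1057 CPM in the other 3 libraries of its group, with miR-199a-5p at 1695 CPM, miR-143-3p at 1466 CPM and miR-199a-3p at 873 CPM. Its Epi marker miR-302b-3p, at 5372 CPM, was the lowest of its group. The E7.5 library had the highest miR-486a-5p of all (4031 CPM), but miR-223-3p and miR-122-5p at 0 and miR-142a-5p at 1133 CPM, the lowest of its group, and its stromal list summed to 1190 CPM, within the 752 to 1499 CPM of the rest of its group. The ratio of miR-451a to miR-144-3p differed too, with fewer counts of miR-451a than of miR-144-3p in the first and more in the second. The part of maternal blood or tissue in either library was not tested.

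**Figure D4:**
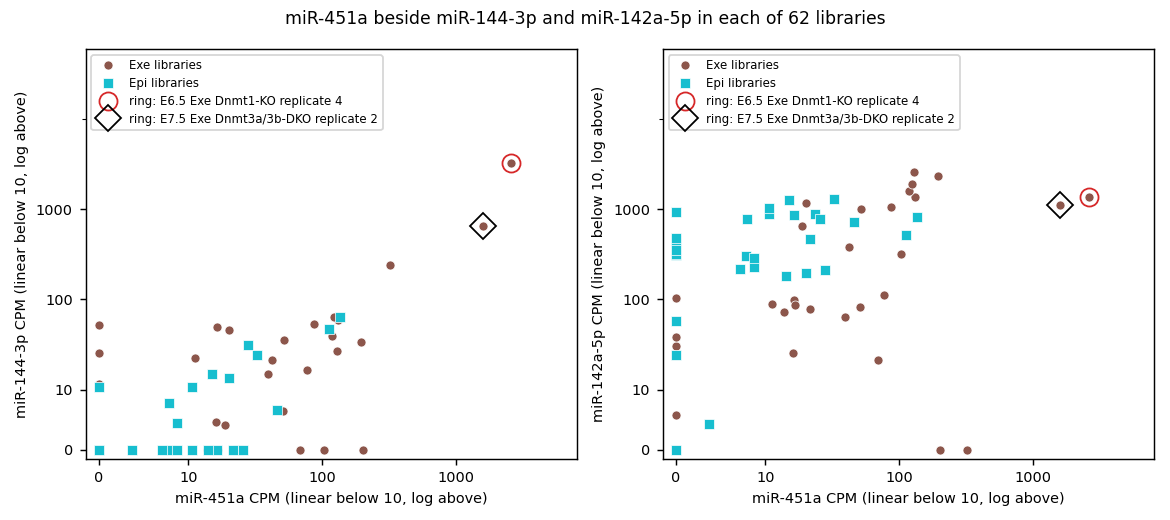
miR-451a (horizontal axis, CPM, linear below 10 and logarithmic above) against miR-144-3p (left) and miR-142a-5p (right) on the same kind of axis, 1 point per Exe or Epi library, with the 2 libraries high in miR-451a ringed. They lie apart in miR-144-3p, at 3262 and 656 CPM, and within the range of other Exe libraries in miR-142a-5p.

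Dnmt loss was also sampled in SC embryos. The E7.5 mutant differed from its control in the deleted miRNAs and the injected clone as well as in Dnmt, and these cannot be told apart. At E7.5, miR-142a-5p was at 40.7, 44.7 and 59.0 CPM in the control and at 438, 449 and 524 CPM in Mir-6KO;Dnmt-null, from 542 to 8812 counts per library. The means were 48.1 CPM ± 9.63 (SD, n = 3) and 470.4 CPM ± 47.0 (SD, n = 3), a rise of 3.07 ± 0.31 on the log2 scale (adjusted p = 0.000918), where 3.08% of all miRNAs were called, and 2.74% were called higher. It was the only call among 3 members tested, and it stood when any library was left out. The oocyte brings a copy of each gene that the deletions in the injected cell do not touch, and miR-127-3p was still at 34218 to 51921 CPM against 52288 to 67386 CPM in the control, so the deleted miRNAs do not check this label. miR-126a-3p was at 24.5, 85.4 and 172 CPM in the control and at 42.5, 63.3 and 112 CPM in the mutant (-0.62 ± 0.73, adjusted p = 0.995). miR-451a reached 5.71 CPM in 6 E7.5 SC libraries.

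At E6.5 edgeR called none of 5 members tested in SC embryos (0 and 2 at an unadjusted p under 0.05 in Dnmt-null and DKO), with 1.52% of all miRNAs called in Dnmt-null and 0.217% in DKO against WT. miR-451a was at 17.7, 31.0 and 74.7 CPM in WT and at 5.12, 7.83 and 10.3 CPM in DKO, without overlap (log2 fold change -2.54 ± 0.64, adjusted p = 0.147). miR-144-3p was at 13.4, 17.7 and 42.6 CPM and at 2.56, 2.89 and 9.30 CPM, also without overlap (-2.49 ± 0.85, adjusted p = 0.233). DESeq2 called both of them (adjusted p = 0.00169 and 0.028). miR-142a-5p was at 15.5, 319 and 406 CPM in WT, at 262, 441 and 873 CPM in Dnmt-null (0.98 ± 0.77, adjusted p = 0.499) and at 177, 201 and 232 CPM in DKO. The lowest WT value came from replicate 3, in which miR-302b-3p was at 20749 CPM against 189068 to 208632 CPM in the other WT libraries. The DKO;Dnmt-null libraries, counted separately over 895 miRNAs and therefore given as levels only, held 629, 667 and 790.3 CPM of miR-142a-5p, 22.6, 24.1 and 45.8 CPM of miR-451a and 54.2, 90.3 and 118 CPM of miR-126a-3p.

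Cultured AG-haESCs, which hold no blood and no vessels, gave the level of the members outside an embryo. miR-142a-5p was at 837, 846 and 867 CPM in WT, above its level in most embryo libraries, and miR-142a-3p at 6.18 to 8.65 CPM. miR-126a-3p was at 36.7, 46.7 and 51.2 CPM and miR-126a-5p at 48.8, 69.2 and 93.3 CPM. miR-451a and miR-144-3p reached 1.99 CPM each and miR-144-5p 0.997 CPM. So miR-142a-5p and both arms of miR-126a were counted in every WT library without blood or endothelium, whereas miR-451a and miR-144 were at 10 counts or fewer in each.

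Between the lines, O48 held 33.1, 719 and 827 CPM of miR-142a-5p, and no member of 6 tested was called against WT by edgeR or DESeq2 or reached an unadjusted p under 0.05, where 13.7% of all miRNAs were. The libraries labelled Mir-6KO go against that label. Their miR-127-3p was at 35728 to 44853 CPM against 551 to 594 CPM in O48, and let-7b-5p, miR-541-5p, miR-369-3p, miR-540-3p and miR-409-3p were likewise higher, while miR-302b-3p was at 234860 to 262404 CPM against 860 to 1552 CPM. In these libraries miR-142a-5p was at 14.7 and 48.9 CPM (-4.53 ± 1.30, adjusted p = 0.0209), overlapping the O48 library at 33.1 CPM. miR-142a-3p was at 0 in both and at 0, 6.91 and 14.6 CPM in O48, so these groups overlapped as well. Against a floor of 3 counts per library, its mean was at least 26.9-fold lower than in O48 (adjusted p = 0.0267), and at least 13.0-fold lower without the highest O48 library. 2 of 6 members were called lower where 52.1% of all miRNAs were called, 31.7% of all lower, and the median log2 change was -0.82, so their share is near that of all miRNAs.

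**Figure D5:**
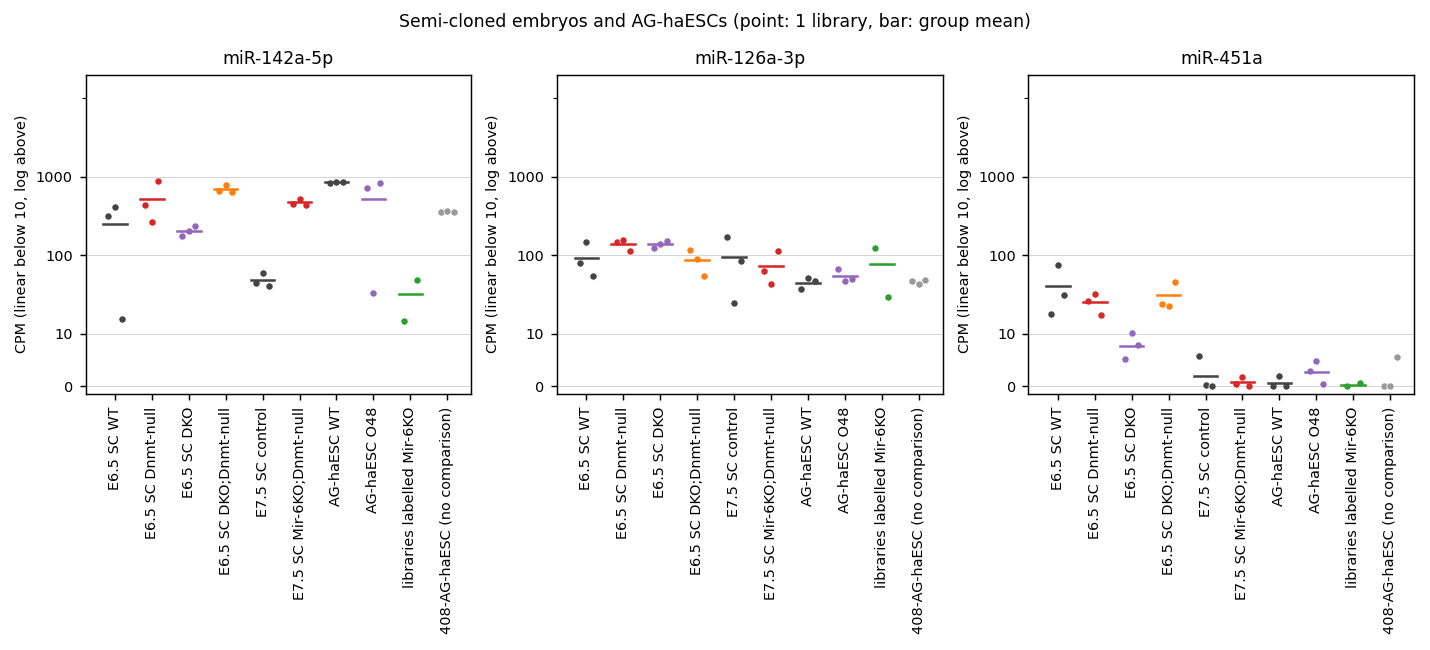
CPM of miR-142a-5p, miR-126a-3p and miR-451a (vertical axis, linear below 10 and logarithmic above) in SC embryos and AG-haESC lines, with 1 point per library and a bar at the group mean. miR-142a-5p is higher in Mir-6KO;Dnmt-null than in control SC embryos, and miR-451a is lowest in the cultured cells and E7.5 SC embryos.

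The 2 arms of miR-126a moved together more closely than other members, with a Pearson r of 0.741 between their log2 CPM over the 62 libraries, and the 5p arm made up 39.9% of their counts. Apart from the doubles, the miRNAs most like miR-126a-3p were miR-503-3p (0.752) and miR-126a-5p. For miR-126a-5p they were miR-126a-3p and its double miR-126b-5p. For miR-142a-5p, miR-335-5p (0.682), miR-450b-5p (0.667) and miR-770-3p (0.594) came first. These values are over libraries that share tissue, stage and depth and are a description.

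Over the control embryos, the order of mean levels of miR-126a-3p was Exe of E7.5, Epi of E7.5, Epi of E6.5 and Exe of E6.5, at 1372, 262, 176 and 96.7 CPM, and each neighbour after the first overlapped in range. For miR-142a-5p it was Exe of E7.5, Epi of E6.5, Exe of E6.5 and Epi of E7.5, at 1060.2, 216, 56.6 and 28.8 CPM, where Epi and Exe of E6.5 did not overlap and the other neighbours did. For miR-451a the Exe groups came first, at 108 CPM (E6.5) and 68.0 CPM (E7.5), then Epi of E6.5 and Epi of E7.5. Without the E6.5 Exe library at 319 CPM the first mean was 37.4 CPM, below that of E7.5 Exe. Both Exe groups overlapped each other and Epi of E6.5, and the Epi groups did not overlap each other.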

How the data were processed

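Raw counts per mature miRNA were deposited for 88 libraries of 1504 miRNAs, plus 3 DKO;Dnmt-null SC libraries in a separate table, and 3 of the 88 are of an AG-haESC line labelled 408 whose genotype the labels do not give. The authors trimmed reads with fastp 0.20.1, aligned the rest by Bowtie 1.2.1.1 against GRCm38 and again against mature miRNAs of miRBase, with some tolerance at the 3′ end, and deposited the counts without normalization. Molecular identifiers are not described, so intervals and floors cover counting error only. An earlier copy of the main table, with 90 columns of which 2 match no library, was not used.

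CPM and log2 fold changes were computed here from the deposited counts. Tests were edgeR 4.0.16 quasi-likelihood tests (R 4.3.3) with TMM scaling, filterByExpr (count minimum 10) and Benjamini-Hochberg adjustment over all miRNAs tested, called at an adjusted p under 0.05. The 15 control Exe and Epi libraries were 1 fit, each tissue and stage 1 fit over its genotypes, all 62 libraries 1 fit for genotype differences between tissues, and SC embryos of each stage and AG-haESC lines 1 fit each. Where edgeR dropped a miRNA as low, it was not tested. The study used DESeq2 1.30.1 with unadjusted p-values and an absolute log2 fold change above 0.5. Alternatives were DESeq2 1.42.0, RLE scaling, other filters on low counts, the study's threshold, thinning to the smallest library, other sets of libraries, a replicate block and leaving out each library. Leaving out repeated rows, the 2 libraries high in miR-451a, the libraries labelled Mir-6KO, or the highest library of miR-451a in E6.5 Exe control and of miR-142a-3p in O48 was chosen after seeing the data. In simulated counts like E7.5 control Exe against Epi (514 miRNAs, 200 changed), 22% of changes of 1 on the log2 scale were recovered, 61.3% of 2 and 95.2% of 4.

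Members and marker lists were chosen with earlier results of these data known. By rule, members are named always, other listed miRNAs where called between control tissues or stages (at most 3 a list, lowest p), and the 3 miRNAs most correlated with each member of at least 10 median counts. Other miRNAs named, those deleted in Mir-6KO and those of the high libraries, were chosen after their values were seen. No pair of replicates was a copy (115 pairs, lowest chi-square per degree of freedom 11.2). Replicate numbers came from the titles. Same-numbered libraries correlated above 0.1 in every pair in 1 of 29 comparisons, E6.5 SC DKO against WT. Every library correlated best with its own number in 3 comparisons, that one, E7.5 control Exe against Epi and E6.5 Epi Dnmt-null against control.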

Additional observations from a re-analysis of the deposited data

Results flagged for a closer look

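In groups of 4 libraries, 1 library lay far from the others, by gap over range, in 23 of 69 combinations of group and miRNA. The nominal 5% of this rule is no chance rate here, since counts in 1 library and none in the others always give the highest value. The combinations also share libraries, so 23 of 69 was not compared with chance. E6.5 Exe Dnmt1-KO replicate 4 was far from the others in 5 miRNAs. These were miR-144-3p at 3262 CPM, miR-451a at 2584 CPM, miR-142a-5p at 1373 CPM, miR-142a-3p at 102 CPM and miR-126a-3p at 424 CPM. E7.5 Exe Dnmt3a/3b-DKO replicate 2 was also far from the others, at 656 CPM of miR-144-3p and 1584 CPM of miR-451a. E6.5 Exe control replicate 1 was, at 243 CPM of miR-144-3p and 319 CPM of miR-451a. The other single high libraries of the erythroid miRNAs were at 64.5 CPM (E6.5 Epi Dnmt3a/3b-DKO replicate 3) and 46.6 CPM (E7.5 Epi Dnmt3a/3b-DKO replicate 2) of miR-144-3p, at 12.4 CPM (E7.5 Epi Dnmt1-KO replicate 1) and 7.98 CPM (E7.5 Exe Dnmt1-KO replicate 4) of miR-144-5p, and at 68.8 CPM (E6.5 Exe Dnmt3a/3b-DKO replicate 4) and 14.2 CPM (E7.5 Epi Dnmt1-KO replicate 3) of miR-451a.

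For miR-142a-3p single libraries lay apart at 24.1 CPM (E7.5 Epi Dnmt1-KO replicate 3), 24.6 CPM (E7.5 Exe Dnmt1-KO replicate 4), 23.6 CPM (E7.5 Exe Dnmt3a/3b-DKO replicate 3) and 20.0 CPM (E7.5 Exe control replicate 1), and below the others at 0 CPM (E7.5 Epi Dnmt3a/3b-DKO replicate 2). For miR-142a-5p they were 394 CPM, below the others (E6.5 Epi Dnmt3a/3b-DKO replicate 2), and 655 CPM (E7.5 Exe Dnmt-null replicate 3). For miR-126a-3p, 62.9 CPM in E6.5 Exe Dnmt3a/3b-DKO replicate 1 lay below the others.

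4 changes differed between Exe and Epi by an interaction test in edgeR. The stage change in control embryos differed by 6.99 on the log2 scale for miR-142a-5p, 3.13 for miR-126a-3p and 2.17 for miR-126a-5p, and the Dnmt-null change at E7.5 by 7.02 for miR-142a-5p.

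In the 3 libraries of the AG-haESC line labelled 408, which are in no comparison, 3 members were above the limit that a count of 0 allows in each library, with lowest values of 358 CPM for miR-142a-5p, 43.2 CPM for miR-126a-3p and 66.5 CPM for miR-126a-5p.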

How the results depend on the processing

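The number of members called was 4 between control tissues, with 4 to 6 over the alternatives, and 4 to 5 when 1 library was left out. It was 4 between stages (3 to 5, and 3 to 5 with 1 left out), 3 for the difference of the stage change (2 to 3, and 1 to 3), 6 between Dnmt genotypes (4 to 11 with 1 left out), 1 for the difference of the genotype change (0 to 1), 1 between SC genotypes (1 to 2) and 2 between AG-haESC lines (1 to 2). The Dnmt genotype count rose to 11 under DESeq2, 21 without a filter on low counts and 24 at the study's threshold. The count for the difference of the genotype change rose to 2, 4 and 5 under the same settings, and the SC count to 3 under DESeq2 and at the study's threshold. With replicate number as a block these counts were 4, 5, 3, 7, 1, 1 and 0 in the order above. The calls of miR-142a-5p and miR-142a-3p between the libraries labelled Mir-6KO and O48 were lost under the block (adjusted p = 0.0933 for both). Under the block miR-451a between E7.5 Exe Dnmt-null and Dnmt3a/3b-DKO was lost (-4.20, adjusted p = 0.0731), and miR-142a-5p (adjusted p = 0.0144) and miR-126a-3p (adjusted p = 0.0426) in E7.5 Exe Dnmt-null and miR-451a in control Epi over the stages (adjusted p = 0.0482) were gained. For E6.5 SC DKO against WT, the only comparison with every same-numbered pair correlated above 0.1, the block changed no call. The cause of these changes was not tested. Of 3824 values of single miRNAs under an alternative, 3695 kept their side of the threshold, 37 lost a call, 92 gained one and 0 turned round with a call. Among the 3695, 117 changed sign without a call in either fit. miR-142a-5p was called in every alternative in E7.5 Epi of each mutant, in E7.5 SC embryos, between control tissues at E7.5, between stages in Exe and for the difference of its stage change. RLE scaling moved the median of all miRNAs by 0.373 between O48 and WT and by -0.147 between control tissues at E7.5. Depth limits miR-144-5p, miR-142a-3p and the erythroid miRNAs at E6.5, where a count of 0 allows up to 66.3 CPM.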

Other observations

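3 AG-haESC libraries labelled 408, a line whose genotype the labels do not give, held 358, 360.3 and 371 CPM of miR-142a-5p, 43.2, 47.0 and 47.7 CPM of miR-126a-3p, 66.5, 72.0 and 72.5 CPM of miR-126a-5p, and 0, 0 and 5.59 CPM of miR-451a.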
